A study of Homo sapiens with 16 samples.

Results

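Ribosomal protein pseudogenes are copies of ribosomal protein mRNAs that were reverse transcribed and inserted elsewhere in the genome. The sites described here are those of the HEK293T pre-mRNA site table that the authors annotated to a processed or transcribed processed pseudogene whose symbol begins like that of a ribosomal protein gene. By this rule, which used no measured level, 115 of the 13398 sites of the map were members, and they carried the symbols of 91 pseudogenes of 46 parent genes. The 46 parents are protein-coding genes, and 22 of them had 23 sites of their own. The other 596 sites of processed pseudogenes and all sites of the map served as further comparisons.

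HEK293T is a transformed line derived from human embryonic kidney. By their labels, 16 libraries form 6 groups. The HEK293T groups are 3 libraries of bisulfite-treated cells lacking PUS1, PUS7 and RPUSD4, 3 libraries of the same triple knockout with no bisulfite in their label, 2 bisulfite-treated control libraries and 2 nontreated control libraries. In HuCCT1, a bile duct cancer line, they are 3 bisulfite-treated libraries and 3 input libraries. The labels used here do not say whether the knockout is 1 clone, nor whether libraries of a group came from separate cultures. The table holds 1 level per site and no value per library, so no condition could be compared and no level carries a replicate error.

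Pseudouridine is an isomer of uridine that pseudouridine synthases make in RNA. In PRAISE-seq, bisulfite turns it into an adduct at which reverse transcriptase skips a base, so that reads over a modified position lack that base. Processed pseudogenes have no introns and keep most of the sequence of the mRNA they came from, so a short read from a ribosomal protein mRNA can align to its gene and to several copies. Ribosomal protein mRNAs are among the most abundant of a cell, and their families of pseudogenes are among the largest in the human genome. The level given below is the percentage of covering reads with the deletion, and each interval is a 95% Clopper-Pearson interval that covers counting error only, since PCR reads without molecular identifiers are not independent molecules.

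The contexts printed here are those on which the results turn: sites listed at several copies of 1 gene, and sites named for a pseudogene that lie in a tRNA gene. Each is the deposited 11-base context in DNA letters, 5′ to 3′ on the listed strand, on hg38. In the first group the capital T is the listed base.
RPS27P29 (chromosome 19): ccaatTcctac
RPS27P21 (chromosome 12): cccaaTtccta
RPS27, the coding parent (chromosome 1): ccaatTcctac
RPL9P7 (chromosome X): ggaaaTttttg
RPL9P8 (chromosome 15): ggaaaTttttg
RPL9, the coding parent (chromosome 4): ggaaaTttttg
RPL3P6 (chromosome 5): gttcaTtgaca
RPL3P7 (chromosome 6): gttcaTtgaca
RPS2P4 (chromosome 14): ggaggTttcgg
RPS2P8 (chromosome 1): ggaggTttcgg
RPL13AP7 (chromosome 21): gaggtTggctg
RPL13AP24 (chromosome 12): cgaggTtggct
In the second group the capitals mark GTTCNA, the motif of the synthase TRUB1, which modifies the T loop of tRNA.
Site named RPL8P1 (chromosome 6): tgaGTTCGAgc
Site named RPL10P2 (chromosome 6): ctagGTTCGAc
Site named RPL17P43 (chromosome 17): cgtGTTCAAgt

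Most of the sites did not lie in the pseudogene they were named for. All 115 symbols matched a RefSeq gene of the same build, and 55 sites (47.8%, interval 38.4 to 57.3%) fell inside the span of the named pseudogene, at 49 pseudogenes. The other 60 lay between 583 and 152268 nt away from it. Among the parents' sites, 21 of 23 fell inside the named gene (91.3%, interval 72.0 to 98.9%). Of the other 596 processed pseudogene sites, 385 had a symbol that matched, and 219 of these fell inside (56.9%, interval 51.8 to 61.9%), so that the intervals of the 2 pseudogene shares overlap. No test was run over sites, since sites of 1 table are not replicates.

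The deposited region label followed this division. All 14 sites labelled TTS, the region around a transcription end, lay inside the named pseudogene, as did 23 of 27 labelled Promoter and 18 of 29 labelled Exon. None of the 28 sites labelled Intergenic, the 15 labelled Intron or the 2 labelled 3'UTR did. All 11 of the Exon sites outside the named pseudogene lay in another protein-coding gene, so that their label is not that of an exon of the pseudogene.

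**Figure D1:**
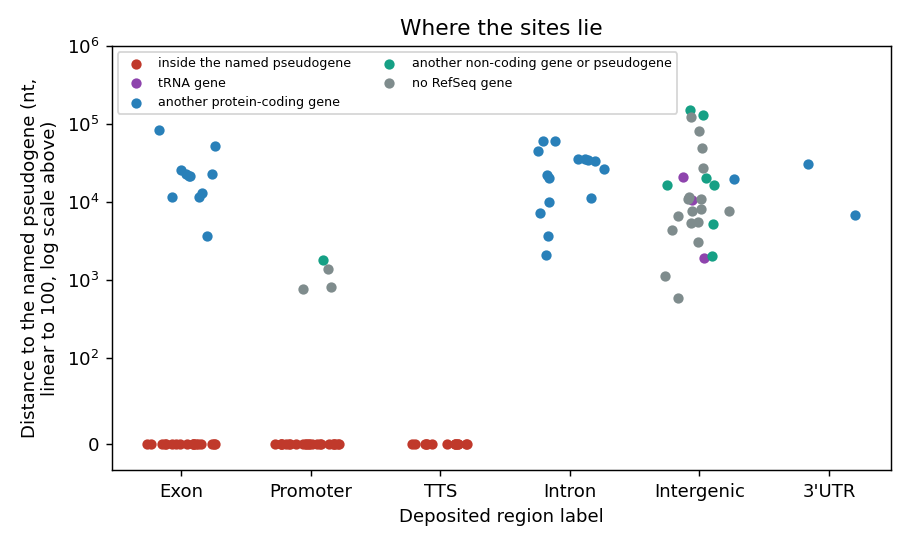
Each point is 1 of the 115 sites, placed by its deposited region label and by its distance in nt to the RefSeq span of the pseudogene it was named for (linear to 100, log scale above), and coloured by what RefSeq places at the site. The 55 inside sites at distance 0 carry the labels Exon, Promoter and TTS only, and the intronic and intergenic labels hold outside sites only.

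Of the 60 outside sites, 29 lay in another protein-coding gene, 3 in a tRNA gene, 8 in another non-coding gene or pseudogene and 20 in no RefSeq gene. The distance to the named pseudogene was 22310 nt at the median for sites in another coding gene and 7051 nt for those in no gene. For 25 of the 29 in a coding gene RefSeq's promoter table gave the strand of that gene, and 23 of these were listed on the opposite strand (92.0%, interval 74.0 to 99.0%). The 25 sites lay in 19 different gene surroundings, so some of them share a gene. Among the other processed pseudogene sites with a matched symbol that lay outside it in another coding gene, 38 of 44 were on the opposite strand (86.4%, interval 72.6 to 94.8%). Of 8383 sites named for the protein-coding gene that holds them, 383 were (4.57%). These sites were chosen by bearing that gene's name, and the outside sites do not bear it. The shares are therefore not independent of the naming. Lying in a coding gene was not particular to the outside sites, since 24 of the 55 inside sites also did. Where the strand of that gene was given, 13 of these inside sites were on the opposite strand and 9 on the same strand. At the inside sites of other processed pseudogenes, 29 were on the opposite strand and 28 on the same strand. How the table's gene names were assigned is not stated in the sources used, and whether the assignment used the strand was not tested.

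**Figure D2:**
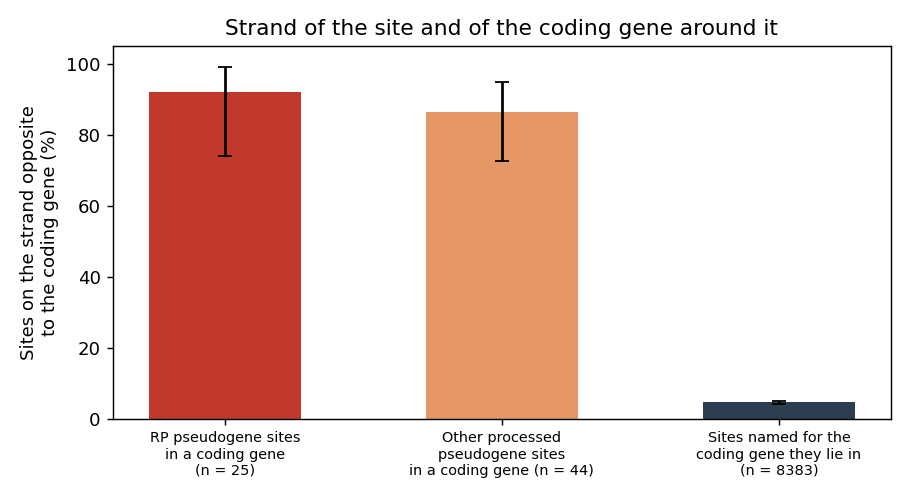
The bars give the percentage of sites listed on the strand opposite to that of the coding gene around them, with 95% Clopper-Pearson intervals, for ribosomal protein (RP) pseudogene sites outside the named pseudogene, other processed pseudogene sites with a matched symbol outside theirs, and sites named for the coding gene they lie in. The values are 92.0%, 86.4% and 4.57%. The groups are defined by the gene name given to each site, so the shares are not independent of the naming.

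The 2 highest levels were at sites outside the named pseudogene. The site named RPL7AP22, a copy of the large subunit gene RPL7A, had 67.4% (29 of 43 reads, interval 51.5 to 80.9%) (chromosome 2 position 158584222, minus strand, atgacTaaaca). It lay 34948 nt from RPL7AP22, in PKP4, which encodes an armadillo-repeat protein of cell junctions and runs on the plus strand, and also in the non-coding gene LOC105373715. The same symbol was given to 2 neighbours within 308 nt, with 24.1% (20 of 83 reads, interval 15.4 to 34.7%) and 5.8% (4 of 69 reads). The intervals of the 3 levels do not overlap, in 1 short stretch of sequence named for a pseudogene that does not hold it.

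The site named RPL21P10 had 50.0% (8 of 16 reads, interval 24.7 to 75.3%) and lay in ALKBH1, a nucleic acid demethylase gene that runs on the other strand. The site named RPL19P14 had 33.3% (6 of 18 reads, interval 13.3 to 59.0%). The sites named RPS4XP1, with 30.4% (7 of 23 reads), and RPL7AP26, with 26.7% (4 of 15 reads), lay in no RefSeq gene. With both RPL7AP22 sites and the site named RPL8P1, in a tRNA gene, 7 of the 9 highest sites lay outside the named pseudogene. The tenth place was shared at 22.7% (5 of 22 reads) by RPL36AP41, inside the named copy, and a site named RPL35AP16, outside it in LARS1. Of all 115 sites, 60 lay outside the named pseudogene. Levels of at least 20% were found at 23.3% of the outside sites, 12.7% of the inside sites and 21.4% of the map. At coverage of at least 60, the median was 7.1% at 7 outside sites and 6.85% at 18 inside sites.

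Inside the named pseudogene the highest level was lower than the highest outside it, with overlapping intervals. The top levels inside rested on few reads, which was not particular to them. Exactly 3 deletion reads stood behind 34.5% of the inside sites and 48.3% of the outside sites. RPL35AP23, a copy of the large subunit gene RPL35A, had 43.8% (7 of 16 reads, interval 19.8 to 70.1%, chromosome 10 position 45940521, ggaagTatgtc). RPS2P6, a copy of the gene of a small subunit protein at the mRNA entry channel, had 31.6% (6 of 19 reads, interval 12.6 to 56.6%, chromosome 18 position 70430744, gaggcTactgg). RPL36AP41 followed with 22.7% (5 of 22 reads, interval 7.82 to 45.4%) and RPL36AP16 with 21.9% (7 of 32 reads). The intervals of the first 3 overlap, so their order is not settled. Among sites labelled TTS, RPL4P2 was the highest with 18.5% (5 of 27 reads), and among those labelled 3'UTR a site named RPL7P54 with 8.1% (3 of 37 reads), which lay in the receptor gene LPAR4.

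Among sites named by symbol, the 3 inside their pseudogene with the most deletion reads were close to the listing minimum. RPL37AP8 had 6.1% (28 of 461 reads, interval 4.07 to 8.66%), at the deepest of the 115 sites, in the context ttctgTggcaa. RPL13AP7 had 6.1% (22 of 358 reads, interval 3.89 to 9.16%) and RPL9P7 7.6% (17 of 224 reads, interval 4.48 to 11.9%). RPS4XP14, a copy of the X-linked gene RPS4X, had 15.0% at 60 reads (9 deletion reads, interval 7.10 to 26.6%).

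Over all 115 sites the median level was 11.5%, against 10% at the parents' sites, 10.3% at the other processed pseudogene sites and 12% over the map. The median inside the named pseudogene was 11.1% (55 sites) and outside it 12.5% (60 sites). The table holds no level under 5% and no site with fewer than 3 deletion reads or 15 covering reads, so low coverage admits only high levels. Median coverage was 39 reads at the pseudogene sites, against 44 at the parents' sites and 35 over the map. Where coverage was at least 60, the medians were 7% at 25 pseudogene sites, 7.7% at 7 parents' sites and 6.7% over the map. The lower interval bound was above the 5% minimum at 26 of the 115 pseudogene sites (22.6%) and 5 of the 23 parents' sites (21.7%), and at 29.8% of all sites of the map. Exactly 3 deletion reads stood behind 48 of the pseudogene sites (41.7%), against 6 of the 23 parents' sites, and 36.8% of the map. At the edge of the minimum, 6 of the 115 pseudogene sites were under 6%, and 1, RPL6P10, was at 5%. Levels under 6% stood at 84 of the 596 other processed pseudogene sites and at 1294 of the 13398 sites of the map.

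**Figure D3:**
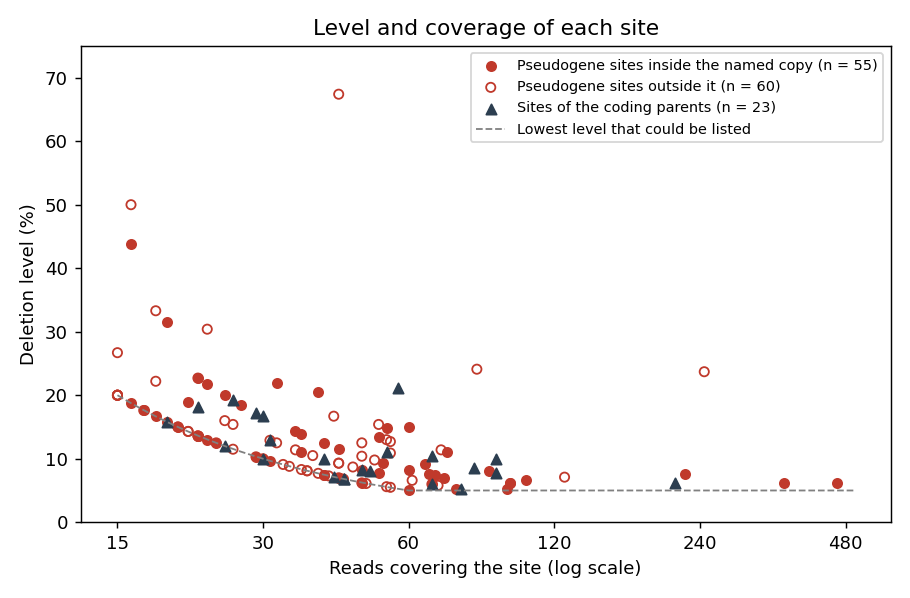
Deletion level (%) against covering reads (log scale) for the 55 pseudogene sites inside the named copy, the 60 outside it and the 23 sites of the coding parents. The dashed line is the lowest level that 3 deletion reads and the 5% minimum allow. The 2 highest points, at 67.4% and 50.0%, lie outside the named copy, and the deepest site, at 461 reads, has 6.1%.

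The same sequence was listed at several copies in 4 families with a member by exact context and in 1 more with a shift of 1 base. Repeated contexts were not particular to the pseudogene sites. A context listed at more than 1 site of the map, of any name, stood at 11 of the 115 sites (9.57%). The share was 14.3% at other processed pseudogene sites and 12.4% over the map. RPS27 encodes a zinc-binding protein of the small subunit. Its copy RPS27P29 had 6.2% (6 of 97 reads) and the parent 21.1% (12 of 57 reads, interval 11.4 to 33.9%), a difference of -14.9 points (interval -27.5 to -4.01, Fisher's exact test on reads, two-sided, p = 0.00848, adjusted p = 0.0539 over all 2956 pairs of sites with 1 context). The difference therefore did not pass the threshold of 0.05. The copy RPS27P21, on the minus strand, was listed 1 base earlier in the same sequence with 11.1% (8 of 72 reads, interval 4.92 to 20.7%). The level in RPS27 was the highest of the 23 sites of the parents, and both copies were covered by more reads than the parent.

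RPL9 encodes a protein of the large subunit. Its copy RPL9P7 had 7.6% (17 of 224 reads) and the copy RPL9P8, which the table lists under an Ensembl identifier, 5.8% (13 of 225 reads), against 16.7% at the parent (5 of 30 reads, interval 5.64 to 34.7%). RPL9P7 and the parent differed by -9.1 points (interval -26.2 to 1.17, adjusted Fisher's exact p = 0.507), and RPL9P8 and the parent by -10.9 points (interval -28.0 to -0.794, Fisher's exact p = 0.0455, adjusted p = 0.21). Both pseudogene copies thus had several times the coverage of the parent. At the parent's 30 reads, the minimum of 3 deletion reads admits no level as low as those of the copies. The order of parent and copies is therefore not informative here.

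Copies without a listed parent had near levels, with wide intervals. RPL3 encodes a protein near the catalytic centre of the ribosome. RPL3P6 had 8.3% (5 of 60 reads) and RPL3P7 9.2% (6 of 65 reads), a difference of -0.9 points (interval -11.5 to 10.0). RPS2P4 had 13.9% (5 of 36 reads) and RPS2P8 12% (6 of 50 reads), a difference of 1.9 points (interval -12.3 to 18.0). RPL13AP7 on the plus strand had 6.1%, and RPL13AP24 on the minus strand had 6.8% (11 of 161 reads) 1 base earlier in the same sequence. Both shifted listings lie in a run of T, the minus-strand site at its first and the plus-strand site at its last base. RPL18, a large subunit gene with no member among its copies, had 7.5% (40 of 536 reads), and a site in its copy RPL18P13 with the same context had 8.1% (24 of 298 reads).

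Of the 5 exact pairs that include a member, 0 passed the adjusted threshold and 1 had an unadjusted Fisher's exact p under 0.05, against 15.6% of all pairs of sites with 1 context in the map that passed. In families of near-identical copies, reads of 1 copy or of the parent could have been placed at another, so a level and a coverage at a single copy are uncertain. The aligner and its treatment of reads with several matches are not stated in the sources used.

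**Figure D4:**
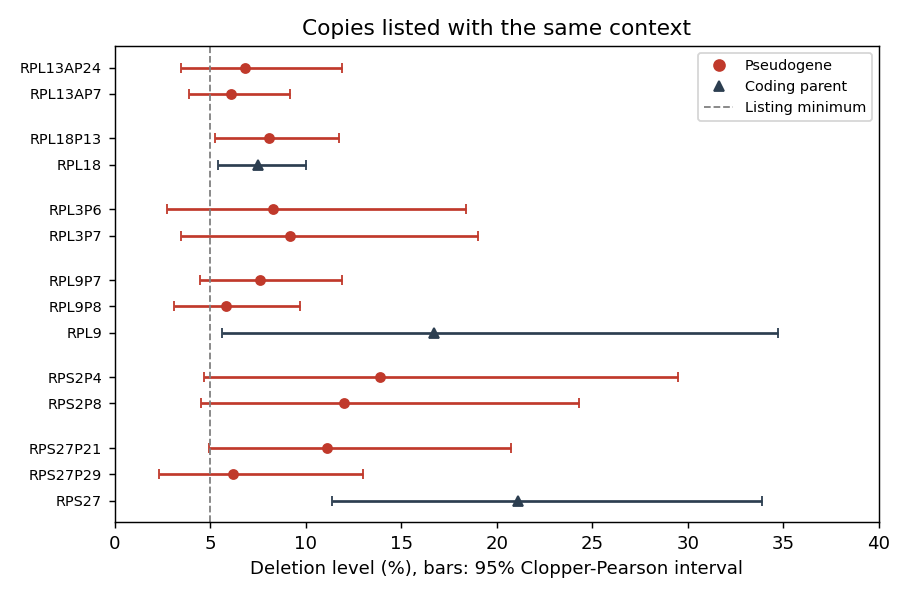
Deletion levels (%) with 95% Clopper-Pearson intervals at copies listed with the same context or with a shift of 1 base, grouped by family. Circles are pseudogenes, triangles coding parents, and the dashed line is the 5% minimum. RPS27 and RPL9 parents stand at 21.1% and 16.7%, above their copies, with overlapping or wide intervals. At the coverage of the RPL9 parent, no level as low as those of its copies could be listed.

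The 4 parents with the most pseudogenes named, RPL5, RPL23A, RPL35A and RPL36A, encode large subunit proteins. RPL5, which binds a ribosomal RNA and p53's regulator MDM2, had 7 pseudogenes with 8 sites, 7 of them inside the named copy, at levels between 7% and 21.7%. RPL5P18 (21.7%, 5 of 23 reads) and RPL5P34 (20.5%, 8 of 39 reads) were the highest, and RPL5P18 had a second site at 7% (5 of 71 reads). RPL36A had 5 pseudogenes, 4 of their 5 sites inside, at 13.6% to 22.7%. RPL23A and RPL35A also had 5 each, with 2 and 1 sites inside. RPL7A, RPL21 and RPS2 followed with 4 names each. RPL7A had 8 sites, of which only that of RPL7AP27 lay inside (10.3%, 3 of 29 reads). RPL21 had the largest RefSeq family among all parents, with 137 pseudogenes, but all 4 of its named sites lay outside.

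**Figure D5:**
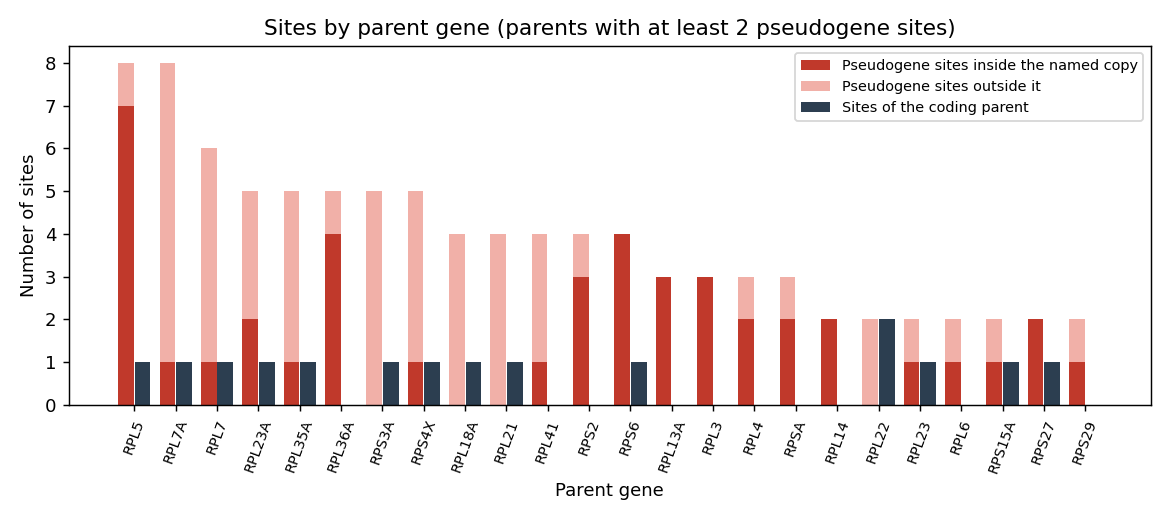
Number of sites for each parent gene with at least 2 pseudogene sites: pseudogene sites inside the named copy (dark red), pseudogene sites outside it (light red) and sites of the coding parent (dark blue). RPL5 leads with 7 sites inside its copies, and RPL7A has 8 pseudogene sites with 1 inside.

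Of the 91 pseudogenes named, 76 had 1 site, 9 had 2, 3 had 3 and 3 had 4. RPS6 encodes the small subunit protein that growth signalling phosphorylates. Its copy RPS6P25 on chromosome 19 was the only one of those with at least 3 sites that held them, with 19% (4 of 21 reads), 17.6% (3 of 17 reads), 11.1% (4 of 36 reads) and 9.7% (3 of 31 reads) within 513 nt. It lies in GCDH, a gene of lysine breakdown on the strand of the sites, and the 4 intervals overlap. The 4 sites named RPL18AP8 had 6.2% to 12.5% and lay 768 to 1997 nt from it, 2 of them in MTRNR2L12, a nuclear copy of mitochondrial ribosomal RNA sequence. The 4 sites named RPL7P54 spread over 18456 nt and the 3 named RPS3AP23 over 47345 nt. The 3 named RPL41P2 lay in HERC2, a ubiquitin ligase gene that runs on the other strand, at 15.4% to 20%.

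In 4 cases 2 sites stood within 2 nt on 1 strand with nearly the same reads. In 3 of them the sites were neighbours in a run of T, with 7 of 54 and 7 of 55 reads for RPL7AP40, 3 of 39 and 3 of 41 for RPL22P1, and 3 of 15 at both for RPL41P2. The sites named RPS3AP20, with 3 of 20 reads at both, were separated by another base. A deletion inside a run of T cannot be assigned to 1 base, and 63 of the 115 sites (54.8%) stood in a run of at least 2, against 58.7% over the map.

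The sequence motifs of known synthases were rare at these sites. The TRUB1 motif stood at 2 of 115 sites as listed and at 3 when any T of the run was counted (2.61%, interval 0.541 to 7.43%), against 1.56% over the map. All 3 lay in tRNA genes. The site named RPL8P1 had 23.7% (58 of 245 reads, interval 18.5 to 29.5%) in TRI-TAT2-3, that named RPL10P2 16.7% (7 of 42 reads) in TRR-ACG2-2, and that named RPL17P43 11.4% (8 of 70 reads) in TRW-CCA2-1. The nearest of the 3 to its pseudogene was 1922 nt away. None of the 55 sites inside a named pseudogene carried this motif, which allows a share of up to 6.49% by the exact interval. The PUS7 motif UNUAR was listed at 0 sites outside its shared form, which allows a share of up to 3.16% by the exact interval, against 3.09% over the map. The form shared by PUS7 and PUS1 (URUAR) stood at 1 site (0.870%, interval up to 4.75%, against 1.63% over the map), named RPL12P28, with 13.6% (3 of 22 reads, ccctaTagttc), and the other PUS1 form, HRUAR, at 1 site (0.870%, against 2.33% over the map), in RPS6P25, with 19% (aacaaTaaaca). Both map shares lie within the interval of the single sites. The frequency of these motifs elsewhere in the same RNAs was not determined.

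The flanks of inside and outside sites differed in base composition. Mean G and C content of the 10 flanking bases was 52.2 ± 15.2% inside the named pseudogene (SD over 55 sites) and 40.3 ± 15.3% outside it (60 sites), against 43.0 ± 16.1% at the parents' sites and 42.2 ± 17.4% over the map. Of the parents' sites 6 were intronic, and of the inside sites 0. No test of these means was run.

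Symbols missed part of the sites in ribosomal protein pseudogenes. RefSeq placed 82 sites of the map inside 75 ribosomal protein pseudogenes, of 1972 that it annotates for the genes on the list (3.8%). Of the 82, 27 did not carry such a symbol, and 25 of those were listed under an Ensembl identifier. The highest of them lay in RPL22P24 with 60% (15 of 25 reads, interval 38.7 to 78.9%), on chromosome 1 in the context cacccTcatct, and was listed under SWT1, the coding gene around it. RPS6P9 followed with 33.3% (5 of 15 reads, interval 11.8 to 61.6%) and RPS24P15 with 25.9% (7 of 27 reads). RPL26P10 had 21.2% (7 of 33 reads), RPL29P3 20% (4 of 20 reads) and RPS15P1 19.2% (10 of 52 reads). The median of all 82 was 11.7%.

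Of the 81 cytoplasmic ribosomal protein genes on the list, 46 had a site named for a pseudogene, 32 had one inside a named pseudogene and 32 had a site of their own. Both kinds of site were found for 22 genes. By subunit, 31 of 47 large subunit genes and 15 of 34 small subunit genes had a site named for a pseudogene. A site inside a named pseudogene was found for 20 large and 12 small subunit genes. RefSeq annotates 1278 pseudogenes of the large subunit genes and 694 of the small, of which 3.44% and 4.47% held a site. The counts by subunit thus do not show more sites for the family size in the large subunit. The highest sites of the parents after RPS27 were in RPL23A with 19.2% (5 of 26 reads), RPL37 with 18.2% (4 of 22 reads), RPS3A with 17.2% (5 of 29 reads, in an intron) and RPL9 with 16.7%. The parents' levels ranged from 5.2% to 21.1% at 23 sites and those of the pseudogene sites from 5% to 67.4% at 115 sites. Inside the named pseudogene the levels ranged from 5% to 43.8% at 55 sites. A range widens with the number of sites, so these ranges do not rank the groups.

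In the authors' deposited table the FDR was above 0 at 4 of the 115 sites (3.48%), against 1 of the 23 parents' sites, and 1.16% of the map. These were the site named RPL8P1 (FDR 7.778e-135), RPL37AP8 (2.405e-18), RPL9P7 (3.113e-14) and RPS2P4 (0.005836). At the other 111 the authors' deposited table gives exactly 0, so its values do not rank those sites.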

How the data were processed

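One table was analysed, of sites in HEK293T RNA on hg38, the build per the submitters' processing notes. The aligner, the caller, the annotation tool and the libraries behind each value are not stated in the sources used. Levels were deposited by the authors as a fraction, printed here as a percentage, coverage as a read count per site, and a p-value and FDR per site, per the file headers. Level times coverage gave whole deletion reads at all 13398 sites within rounding of the level. At 69 of 69 sites in RefSeq promoter windows of GRCh38.p14 the listed context was the reference sequence.

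Members were taken by symbol and type, and parents by removing the suffix of the symbol. The members and lists were chosen with earlier results of these data known. Spans came from RefSeq genes, and strands of coding genes from its promoter table, which holds none of the members. Intervals and Fisher's exact tests used scipy 1.17.1, and intervals of differences are Newcombe's, with statsmodels 0.14.6. Benjamini-Hochberg adjustment ran over all 2956 pairs of sites with 1 context. Named sites were the 10 highest, the 10 with most deletion reads where they add to the text, pseudogenes with at least 3 sites, the 5 parents with most pseudogenes, the highest site of each region and class, same-context pairs and the parents' 5 highest. Other sites were named after their values were seen. A planned match of contexts to parent proteins was not run, since no protein table was used here. The test script was tested on simulated data.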

Additional observations from a re-analysis of the deposited data

How the results depend on the processing

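The median level of the pseudogene sites depended on coverage. It was 11.5% over all sites, 8.5% at coverage of at least 30 and 7% at coverage of at least 60, and the parents' median was 10% over all sites and 7.7% at coverage of at least 60. The listing minimum of 3 deletion reads admits no level under 20% at 15 reads. The other alternatives left both medians within the interval of the median. Pseudogene sites that shared a context with another site named by symbol in the family numbered 4, and 5 with RPS2P4, whose partner is listed under an Ensembl identifier. Over every site inside a RefSeq pseudogene, an alternative chosen after seeing the data, they numbered 8. With any T of the run counted, UNUAR sites numbered 2 and not 0 (1.74%, against 5.48% over the map). By that count U-tract sites numbered 10 and not 0 (8.70%, against 9.66% over the map). TRUB1 sites numbered 3 and not 2 (2.61%, against 1.56% over the map). Merging sites within 2 nt and leaving out tRNA genes were also chosen after seeing the data. Leaving out a replicate was not run, because the table has no column per library. No paired analysis was possible because the columns carry no replicate number.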
